A study of Mus musculus with 4 samples.

Results

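The genes described here encode parts of the axoneme, the microtubule machine that bends the sperm flagellum, and factors that help to assemble it. They comprise the axonemal dynein heavy, intermediate and light chains, 4 dynein assembly factors named Dnaaf, the radial spoke proteins, the CFAP (cilia and flagella associated protein) genes, and Dnali1, Spag6, Spag16, Spag17, Ccdc39 and Ccdc40. They were chosen by symbol among protein-coding genes, with the requirement of at least 10 expected counts in at least 2 of the 4 libraries. The rule itself uses no difference between the genotypes, though it was written with earlier results of these data known. That left 66 of 68 genes with a matching symbol, out of 55364 gene identifiers in the tables and 13871 protein-coding genes that met the same count minimum. Dnah11 and the spoke-head gene Rsph4a did not meet it. All 66 had at least 10 counts in all 4 libraries and passed the expression filter of the test, and 0 of them lay on the X or Y chromosome.

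The libraries were made from total RNA of pachytene spermatocytes, the germ cells in the long mid-prophase of the first meiotic division, enriched from mouse testis by enzyme digestion and centrifugal elutriation. The WT group had 2 libraries from wild-type animals, and the KK group had 2 from animals that carry a Ddx4 knock-in on both alleles. Ddx4 encodes a germline RNA helicase of the germ granules. The labels give no strain, age, treatment or further allele for either group, and the knock-in design is not described in them beyond the word homozygous. The series title names a tagged mouse model, phase separation of germ granules and RNA homeostasis as the setting of the comparison. The labels do not say whether both libraries of a genotype are from different animals, so p-values measure only how far these samples spread, and that spread may be technical.

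An axoneme consists of doublet microtubules around a central pair. Outer and inner dynein arms on each doublet walk on the next one, and each arm is built on very large heavy chain motors that are folded and preassembled in the cytoplasm before transport into the flagellum. Radial spokes relay signals from the central apparatus to the arms, a pair of coiled-coil ruler proteins sets the spacing of arms and spokes, and inner proteins brace the doublet wall. In the testis the transcripts of these genes accumulate in meiotic cells, ahead of flagellum growth in spermatids, and the transcription factors RFX2 and MYBL1 are known for their part in switching them on.

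RFX factors bind a motif called the X-box, whose half-site GTTGCC was looked for on both strands (as GTTGCC or GGCAAC) in the 250 bases before the RefSeq transcription start (build GRCm38.p6). RefSeq gave a window for 55 of the 66 genes, and 49 of these lay within 500 bases of the start of the gene's most abundant annotated isoform. Of these 49 windows, 16 (32.7%) held the half-site, against 3423 of all 32817 promoter windows of that length (10.4%). It was in 11 of 26 windows of genes that fell in KK, in 2 of 11 of genes that rose and in 3 of 12 of genes without a call, by the test described further on. The 11 include the related copies Dnah7a, Dnah7b and Dnah7c, whose windows resemble each other after the half-site, so these are not separate cases. The longer motif GTTNCCNNGGNAAC, which overlaps the half-site, was in 1 of 49 windows, that of the dynein assembly gene Cfap298, against 0.375% of all windows. A match is a description of letters and not a site shown to be bound. 4 windows are printed because they place the same letters close to the start of genes that moved in opposite directions: Dnah10 and Cfap46 fell in KK, Spag6 and Cfap58 rose. The half-site is in capitals, and it begins 20 bases before the start in Dnah10 (chr5:124724835-124725084, plus strand), 9 in Cfap46 (chr7:139683816-139684065, minus strand), 37 in Spag6 (chr2:18698772-18699021, plus strand) and 59 in Cfap58 (chr19:47937462-47937711, plus strand).
Dnah10: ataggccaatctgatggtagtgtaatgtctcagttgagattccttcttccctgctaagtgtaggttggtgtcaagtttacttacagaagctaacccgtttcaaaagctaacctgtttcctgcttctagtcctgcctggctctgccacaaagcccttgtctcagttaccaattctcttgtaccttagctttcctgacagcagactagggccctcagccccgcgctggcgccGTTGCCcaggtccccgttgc
Cfap46: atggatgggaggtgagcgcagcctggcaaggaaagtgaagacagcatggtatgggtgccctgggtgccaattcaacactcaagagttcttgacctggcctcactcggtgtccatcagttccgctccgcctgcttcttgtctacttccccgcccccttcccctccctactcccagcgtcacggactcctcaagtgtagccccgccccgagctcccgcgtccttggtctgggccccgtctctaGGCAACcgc
Spag6: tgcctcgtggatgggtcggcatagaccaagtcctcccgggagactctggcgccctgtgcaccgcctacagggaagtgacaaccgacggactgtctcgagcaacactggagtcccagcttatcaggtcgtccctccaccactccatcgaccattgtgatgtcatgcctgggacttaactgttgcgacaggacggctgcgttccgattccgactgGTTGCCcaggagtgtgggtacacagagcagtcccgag
Cfap58: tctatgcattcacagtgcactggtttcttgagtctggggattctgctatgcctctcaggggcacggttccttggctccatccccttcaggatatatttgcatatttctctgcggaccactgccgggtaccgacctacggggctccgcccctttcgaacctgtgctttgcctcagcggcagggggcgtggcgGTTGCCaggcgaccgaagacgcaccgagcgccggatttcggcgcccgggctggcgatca

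The libraries held between 17970207 and 19438570 expected counts. The Ddx4 transcript, 265.0 and 272.9 TPM in WT and 54.4 and 52.5 TPM in KK, was 5.05-fold lower in KK (edgeR adjusted p = 6.8e-27), so the targeted gene separated the libraries as labelled. TPM, a gene's share of transcripts after division by length, is a level per transcript, so it is the scale used here to compare genes. Markers of pachytene spermatocytes summed to 11378 to 11854 TPM in the 4 libraries, and 6 of the 10 were lower in KK. Ldhc alone made up 9459 to 9748 TPM of this sum. Markers of spermatids, the later cells that build the flagellum, were also abundant, at 21669 and 21772 TPM in WT against 18966 and 19477 TPM in KK, with 8 of 16 higher and 7 lower. Leydig cell markers rose from 698 and 736 TPM in WT to 2494 and 2574 TPM in KK, with 9 of 10 higher; Insl3 alone made up 611 and 642 TPM of this in WT and 2314 and 2399 TPM in KK. Spermatogonium markers summed to 63.9 and 112 TPM in WT and 81.1 and 90.7 TPM in KK, with 7 of 12 tested higher, 1 lower and a median log2 fold change of 0.93. Sertoli cell markers summed to 239 and 242 TPM in WT and 338 and 341 TPM in KK, with 2 of 12 higher and 5 lower. Ptgds alone made up 73 and 73.8 TPM of this sum in WT and 191 and 187 TPM in KK. Markers of multiciliated or duct epithelium, another source of axonemal transcripts, summed to 153 and 154 TPM in WT and 169 and 170 TPM in KK. Of the 6 that could be tested, 3 were higher in KK and 1 was lower. Deup1 (66.8 to 89.2 TPM), Foxj1 (17 to 28.9 TPM), Epcam (19.7 to 26.1 TPM), Cldn3 (21.1 to 26.9 TPM) and Krt8 (11.8 to 14.5 TPM) were present, while Mcidas was at 0 in all libraries and Krt18 at or below 0.13 TPM. The part of these cell types in the results was not tested. In bulk RNA, fewer cells of a type and less RNA per cell cannot be told apart.

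The axonemal genes were an abundant class in these libraries, and in KK more of them were lower than higher. Their summed level was 12646 and 12728 TPM in WT and 11886 and 11698 TPM in KK, and the KK libraries lay below both WT libraries. As a share of all counts they took 1.92% and 1.96% in WT and 1.79% in each KK library. 26 genes stood above 100 TPM in every library, and 3 (Dnah5, Dnah9 and Cfap97d2) stood below 1 TPM in every library.

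The genotypes were compared with edgeR's quasi-likelihood test on rounded counts over 16571 genes, and a gene counts as lower or higher in KK at a Benjamini-Hochberg adjusted p under 0.05. Of the 66 axonemal genes 34 were lower in KK and 13 higher, which is 51.5% and 19.7%, with 19 without a call. Over all genes tested, 43.7% were called, 21.7% lower and 22.0% higher. Most axonemal genes are well expressed, and calls are more frequent in such genes: with a mean of at least 20 CPM (counts scaled to library size), 59.8% of 6602 genes were called, 40.2% lower and 19.6% higher, against 57.6% and 16.9% of the 59 axonemal genes at that level. The share of higher calls was thus near the background, and the share of lower calls was above it. No test of the list was made. The background is not matched for transcript length, with which the fold changes also varied, as shown further on. Of the 450 genes with at least 20 CPM and 5000 bases or more, 67.3% were lower, and 17 of the 66 axonemal genes are of that length. The median log2 fold change, KK against WT, was -0.12 over the 66 genes, 0.00 over all genes tested and -0.09 over those with at least 20 CPM. The 2 KK libraries did not overlap the 2 WT libraries in CPM for 57 of the 66, where 70.8% of all genes tested did not overlap. With a mean of at least 20 CPM, this held for 53 of the 59 axonemal genes and for 5385 of all 6602 genes. The changes were small: the log2 fold changes ran from -0.62 (Dnah8) to 0.86 (Cfap77), so no gene reached a 2-fold change. With scaling by library size alone, 25 were lower and 22 higher (53.2% of calls lower, against 72.3% with TMM scaling). By that scaling 15.2% of all genes tested were lower and 27.3% higher, and among all genes the share of lower calls went from 49.6% to 35.8%.

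**Figure D1:**
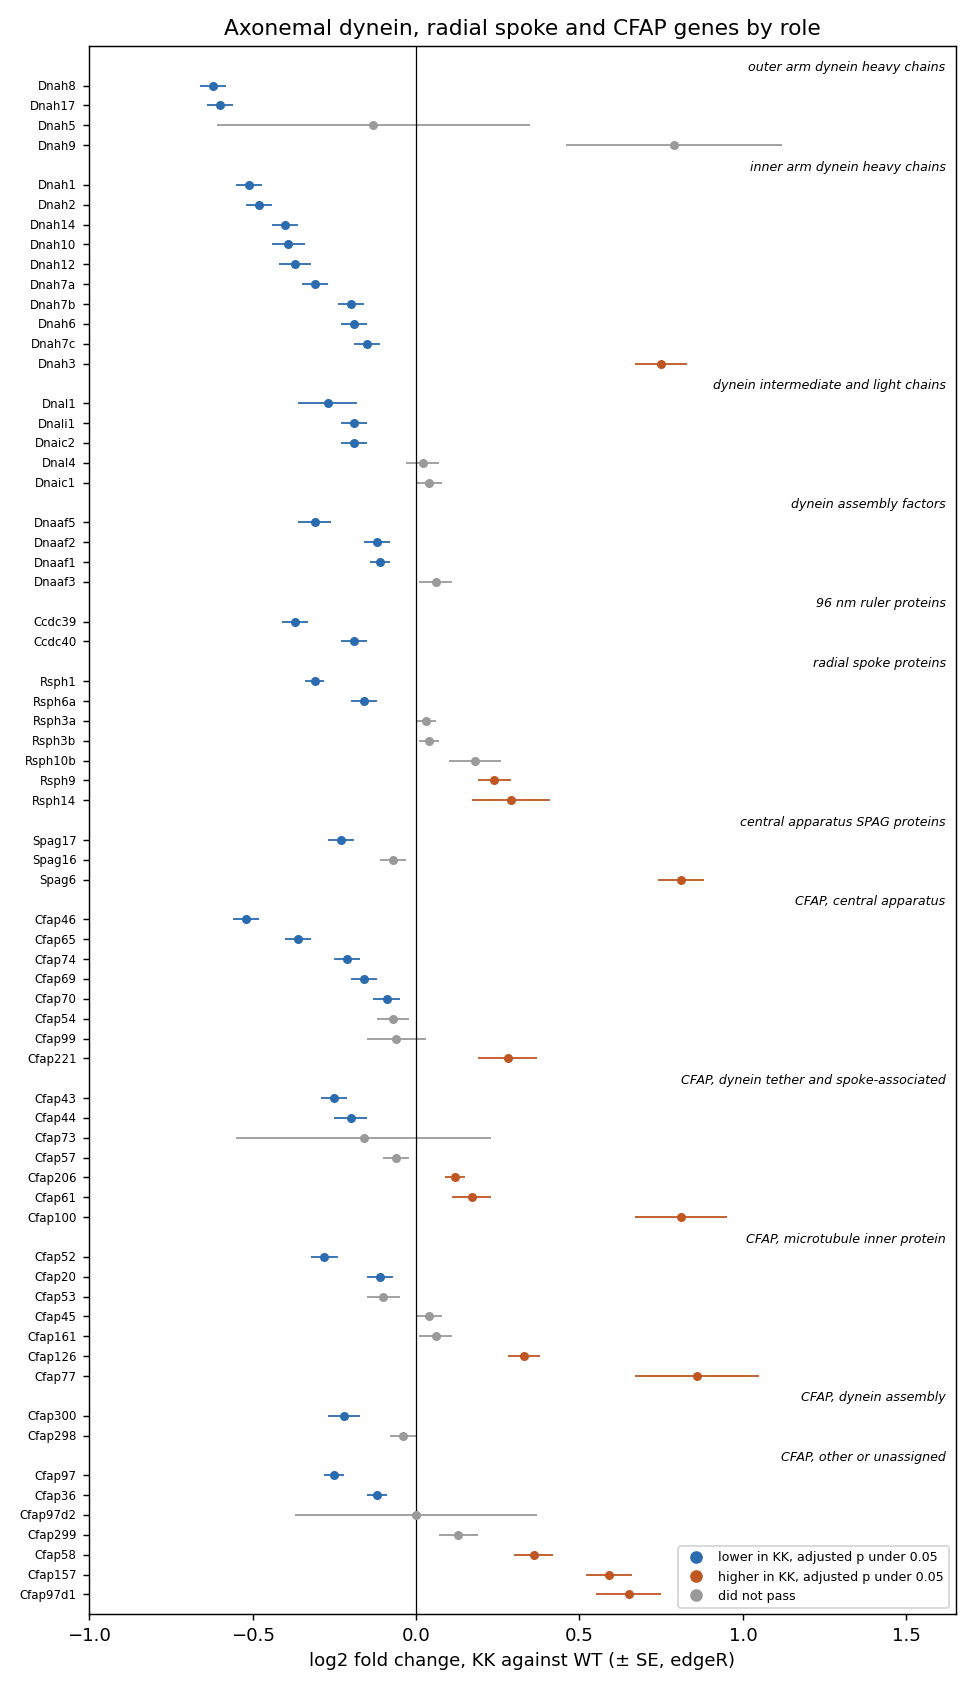
Log2 fold change of KK against WT for the 66 axonemal genes, grouped by role; points are edgeR estimates and bars are ± 1 SE from 2 libraries per genotype. Heavy chains lie mostly to the left of 0 (11 of 14 lower), while radial spoke and CFAP genes lie on both sides. Of all 450 genes with at least 20 CPM and 5000 bases or more, 67.3% were lower.

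The outer arm was represented by the heavy chains of sperm, and both fell. Dnah8, an outer arm heavy chain of the sperm flagellum, stood at 410 and 519 TPM in WT and 324 and 317 TPM in KK. The WT libraries both lay above the KK libraries, though they also differed from each other. In normalised counts Dnah8 fell from 2044 ± 103 to 1333 ± 31.1 CPM (mean ± SD, n = 2 libraries each), a log2 fold change of -0.62 ± 0.04 (SE, edgeR adjusted p = 1.4e-13) or 34.8% less. Dnah17, its partner heavy chain in sperm, was at 87.3 and 89.3 TPM in WT against 57 and 59 TPM in KK. The gap between genotypes was far wider than that within them, and the log2 fold change of Dnah17 was -0.60 ± 0.04 (edgeR adjusted p = 1.5e-13). These were the largest falls among the 66 genes, and they went together with the highest levels among heavy chains: Dnah8 alone made up 47.1% to 51.7% of the summed heavy chain TPM in each library. That share depends on how reads were assigned to isoforms, since a short processed transcript of 983 bases was given 39.9% to 43.4% of Dnah8 transcripts on only 1252 to 2018 counts. The long isoforms Dnah8-201, annotated as protein coding, and Dnah8-211, annotated as a target of nonsense-mediated decay, held most counts. Each had fewer in both KK libraries than in either WT library: Dnah8-201 had 15856 and 13413 counts in WT and 12088 and 10131 in KK, and Dnah8-211 had 13664 and 19591 against 10022 and 10734.

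The outer arm heavy chains of airway and ependymal cilia were near the limit of detection. Dnah5 was at 0.06 and 0.08 TPM in WT and 0.06 and 0.07 TPM in KK, with 13 to 17 counts per library and no difference detectable at this depth: the 95% exact interval of the scaled KK to WT count ratio, which covers counting error only, was 0.528 to 1.57. Dnah9 was at 0.23 TPM in each WT library and 0.48 and 0.46 TPM in KK. The genotypes did not overlap, but the log2 fold change of 0.79 ± 0.33 did not pass (edgeR adjusted p = 0.0512, with 51 counts in WT and 94 in KK); it passed in 5 of 15 alternative analyses. Dnah11, outside the list, had between 1.08 and 10.44 counts in a library.

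Inner arm heavy chains were lower in 9 of 10 cases, and the exception, Dnah3, was higher. Of all 450 genes with at least 20 CPM and transcripts of 5000 bases or more, 67.3% were lower and 10.2% higher. With the trend of fold change with length removed, as described further on, 6 of the 10 were lower and 1 higher. Dnah1, a single-headed inner arm motor whose loss is a known cause of malformed sperm flagella, had 53.7 and 57.2 TPM in WT and 35.2 and 39.1 TPM in KK. Its log2 fold change was -0.51 ± 0.04 (edgeR adjusted p = 3.2e-11), with no overlap between the genotypes. Dnah2 and Dnah10 are the 2 heavy chains of the double-headed inner arm, and they fell alongside each other. Dnah2 went from 49 and 46.4 TPM to 40 and 35.9 TPM, a log2 fold change of -0.48 ± 0.04. Dnah10, at a lower level, went from 16.5 and 17.9 TPM to 11.8 and 13.7 TPM, a log2 fold change of -0.39 ± 0.05; its call was lost when TPM was tested in place of counts (limma adjusted p = 0.0673 and 0.0622). In both genes each KK library was below each WT library.

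Dnah14, Dnah12 and Dnah6 were lower too. Dnah14 had 59.1 and 76.6 TPM in WT and 58.2 and 44.7 TPM in KK, so one library of each genotype stood almost at the same level. Its 400-base isoform Dnah14-204 was given 23.5% to 44.3% of the Dnah14 transcripts on 13 to 43 counts, so the TPM of this gene is sensitive to few reads. In counts its log2 fold change was -0.40 ± 0.04, and the call was lost in both tests of TPM (limma adjusted p = 0.156 and 0.154) and with an offset for effective length (edgeR adjusted p = 0.0695). Dnah12 fell by 0.37 on the log2 scale, from 25.2 and 29.8 TPM to 22.1 and 20.3 TPM, and was not called on TPM (limma adjusted p = 0.074 and 0.0721). Dnah6 had 18.9 TPM in both WT libraries and 16.6 TPM in both KK libraries, a log2 fold change of -0.19 ± 0.04. This small difference passed in the count test (edgeR adjusted p = 3.1e-04), but not in either test of TPM.

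Dnah7a, Dnah7b and Dnah7c are related copies on chromosome 1, and their reads can be split between them with uncertainty: 40.3%, 48.4% and 48.5% of the 50-base words of their main isoforms occur in another gene, chiefly in each other. As deposited, all 3 were lower in KK, with log2 fold changes of -0.31, -0.20 and -0.15 (SE 0.04 each). Their levels ranged from 28.2 TPM (Dnah7c in KK) to 55.7 TPM (Dnah7a in WT), and the genotypes did not overlap for any of the 3. Short isoforms weigh on these levels. Dnah7a-202 (732 bases) was given 58.6% to 61% of Dnah7a transcripts on 154 to 206 counts. Dnah7b-203 (740 bases) was given 36.9% to 41.7% of Dnah7b transcripts on 107 to 140 counts. The Dnah7c call was lost without WT replicate 2 (-0.10, edgeR adjusted p = 0.138).

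Dnah3, another single-headed inner arm motor, moved the other way. It was the least abundant heavy chain above 1 TPM, with 4.21 and 4.84 TPM in WT and 6.97 and 8.21 TPM in KK. It rose by 0.75 ± 0.08 on the log2 scale (edgeR adjusted p = 1.2e-08), or 1.68-fold, and kept its direction and call in all 15 alternatives. Its main isoform, Dnah3-204, held most of the rise, with 493 and 509 counts in WT and 958 and 873 in KK. The library kit does not mark strand, so reads of genes that overlap on opposite strands cannot be told apart, and 10.5% of the exon bases of Dnah3 overlap Lyrm1. Summed over the 14 heavy chains, the level was 856 and 1004 TPM in WT and 688 and 673 TPM in KK. This sum includes short isoforms with few counts, not in Dnah8, Dnah14 and the Dnah7 copies alone. Dnah2-206 (696 bases) was given 17.6% to 34.5% of Dnah2 transcripts on 45 to 83 counts. Heavy chains took 0.513% and 0.545% of all counts in WT and 0.401% and 0.408% in KK.

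**Figure D2:**
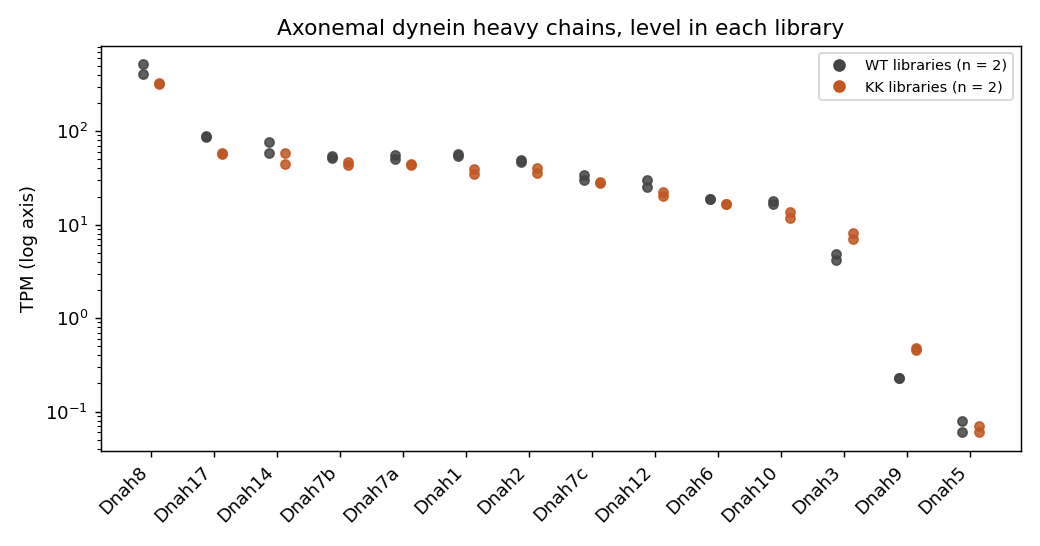
Level of each axonemal dynein heavy chain in TPM (log axis) in each of the 2 WT and 2 KK libraries, ordered by level. The TPM of a gene covers all its isoforms, short ones included. The sperm outer arm chain Dnah8 stands highest at 317 to 519 TPM, Dnah9 and Dnah5 stand below 1 TPM, and Dnah3 and Dnah9 are the chains with both KK libraries above both WT libraries.

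Heavy chain transcripts are among the longest in the cell, and in these libraries long transcripts tended to be lower in KK whatever they encode. Among genes with at least 20 CPM and an effective length (the stretch of transcript that can yield a read) of 5000 bases or more, the median log2 fold change was -0.27 over 450 genes, and 67.3% were lower. The axonemal genes were not held to 20 CPM in these classes, so the longest class includes the scarce Dnah5 and Dnah9. The 17 axonemal genes of that class had a median of -0.31, with 13 lower and 1 higher. Of the 450 genes, 10.2% were higher. Between 3000 and 5000 bases the medians were -0.19 over 1258 genes and -0.21 over 9 axonemal genes, of which 8 were lower and 0 higher, where 55.7% of all genes in the class were lower and 12.6% higher. Below 1000 bases they were 0.04 over 1337 genes and 0.06 over 11 axonemal genes, with 2 lower and 4 higher, near the 18% lower and 28.8% higher of all genes in the class. Between 1000 and 3000 bases the axonemal medians were nearer 0 than those of all genes. From 1000 to 2000 bases they were -0.02 against -0.07, with 7 of 20 axonemal genes lower and 5 higher. Of all genes in that class 34.6% were lower and 21.3% higher. From 2000 to 3000 bases they were -0.00 against -0.13, with 4 of 9 axonemal genes lower and 3 higher. Of all genes there 46.7% were lower and 17.6% higher. The -0.00 is the value of Cfap97d2, a gene at 1.51 CPM in each genotype. Spearman's rho between log2 fold change and effective length, given as a description across genes that share the same libraries, was -0.52 over the 66 axonemal genes, -0.47 over the 52 that are not heavy chains and -0.33 over the 6602 genes. Within the 14 heavy chains it was 0.17. Effective length is given per gene and is lower where short isoforms take a large share of the transcripts. It was 5002 bases for Dnah7a and 11778 bases for Dnah7c, whose main isoforms have 12245 and 12207 bases.

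**Figure D3:**
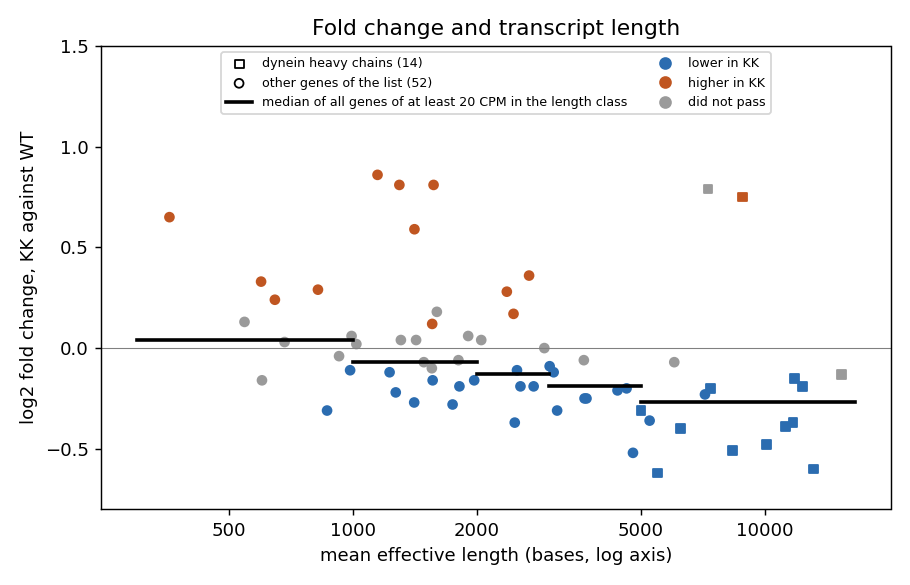
Log2 fold change of KK against WT plotted against mean effective length in bases (log axis) for the 66 axonemal genes, with heavy chains as squares; black bars are medians of all genes with at least 20 CPM in each length class, falling from 0.04 below 1000 bases to -0.27 at 5000 bases and above. Most heavy chains lie below the bar of the longest class and Dnah3 and Dnah9 lie far above it.

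When the trend with length was fitted in each library and taken out as an offset in the edgeR model, 8 heavy chains remained lower: Dnah8 (-0.47), Dnah17 (-0.40), Dnah1 (-0.33), Dnah2 (-0.29), Dnah14 (-0.25), Dnah10 (-0.20), Dnah12 (-0.17) and Dnah7a (-0.17). Dnah7b (-0.03, edgeR adjusted p = 0.529), Dnah6 (0.01, adjusted p = 0.794) and Dnah7c (0.05, adjusted p = 0.258) lost the call, the last 2 with a change of sign. Dnah3 stayed higher at 0.93 and Dnah9 then passed at 0.96 (edgeR adjusted p = 0.0178). The median of the 14 moved from -0.34 to -0.17. The offset used the same effective lengths per gene, so chains with abundant short isoforms were adjusted as shorter genes. Over all 66 genes the same fit gave 30 lower and 13 higher, with 26 lower and 12 higher calls shared with the fit that has no length term.

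**Figure D4:**
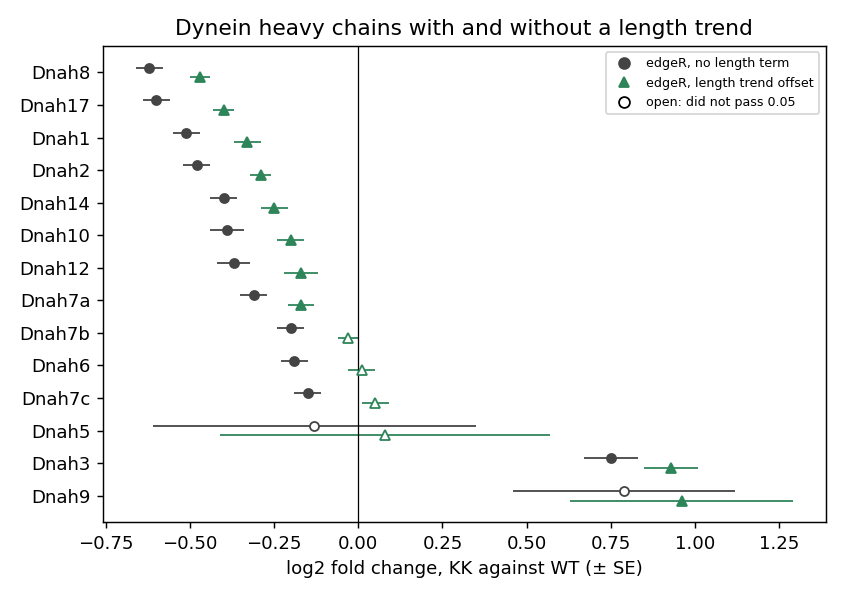
Log2 fold change of KK against WT (± 1 SE, edgeR) for the 14 heavy chains without a length term and with the length trend taken out; open symbols did not pass an adjusted p of 0.05. With the trend removed every estimate moves toward higher values, and 8 chains stay lower while Dnah3 and Dnah9 are higher.

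The intermediate and light chains that complete the arms changed little. Of 5 genes, 3 were lower, 0 were higher, and the median log2 fold change was -0.19. The background of all genes with at least 20 CPM was 40.2% lower and 19.6% higher. Dnali1, the light chain of single-headed inner arms, had 215 TPM in both WT libraries and 184 and 194 TPM in KK, a log2 fold change of -0.19 ± 0.04 (edgeR adjusted p = 1.7e-04). The outer arm intermediate chain Dnaic2 went from 98.4 and 95.8 TPM to 84.3 and 85.6 TPM, with the same log2 fold change of -0.19. With scaling by library size alone Dnali1 was at -0.10 and Dnaic2 at -0.11, both still called. Its partner Dnaic1 was at 87.7 and 88.9 TPM in WT and 86 and 89.8 TPM in KK, and the genotypes overlapped. Dnal4 overlapped too, at 161 and 159 TPM in WT and 178 and 159 TPM in KK.

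Dnal1, which encodes a light chain that binds the outer arm motor, is a case where counts and levels disagreed. Its counts were lower in KK (-0.27 ± 0.09 on the log2 scale, edgeR adjusted p = 0.0198), yet its TPM was 23.6 and 25.4 in WT and 28.7 and 24.4 in KK. The long isoform Dnal1-202 (5727 bases) had 429 and 430 counts in WT and 361 and 305 in KK, while the short Dnal1-201 (790 bases) had 115 and 136 against 172 and 137. Per transcript, the share of the short isoform went from 74.7% and 77.5% to 80.2% and 83.1%. With TPM or effective length in the fit the estimate turned positive (0.11 and 0.10) and did not pass.

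Of the 4 Dnaaf genes, whose products fold and preassemble dynein arms in the cytoplasm, 3 were lower and 0 higher. The background of all genes with at least 20 CPM was 40.2% lower and 19.6% higher. Dnaaf1 was the third most abundant of the 66 genes, at 882 and 879 TPM in WT and 806 and 820 TPM in KK. Its log2 fold change was only -0.11 ± 0.03 (edgeR adjusted p = 0.00898), and the call was lost with the length trend removed (adjusted p = 0.099). Of its exon bases 20.7% overlap Taf1c on the opposite strand. Dnaaf5 fell most, by 0.31 on the log2 scale, from 46.1 and 44.1 TPM to 35.4 and 37.1 TPM. Dnaaf2 was called lower at a log2 fold change of -0.12 ± 0.04, a call lost in 9 of 15 alternatives; 68.1% of the 50-base words of its transcript occur in other annotated genes, so its reads are uncertain. Dnaaf3 did not differ detectably (0.06 ± 0.05). The CFAP genes with a role in dynein assembly were Cfap300 and Cfap298. Cfap300 was at 96.8 and 99.1 TPM in WT and 82.2 and 85.7 TPM in KK (-0.22 ± 0.05). Cfap298 was at 359 and 371 against 371 and 343 TPM, where the genotypes overlapped. Of the 50-base words of its main isoform 41.7% occur in other annotated genes, so its reads are uncertain too.

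Both ruler genes fell. Ccdc39 had 191 and 219 TPM in WT and 155 and 146 TPM in KK, a log2 fold change of -0.37 ± 0.04 (edgeR adjusted p = 1.6e-09). Its partner Ccdc40 had 151 and 157 TPM in WT and 127 and 137 TPM in KK, a log2 fold change of -0.19 ± 0.04 (edgeR adjusted p = 1.8e-04). Neither overlapped between genotypes, and both kept the call in all 15 alternatives. Ccdc39 shares 16.9% of its exon bases with Ttc14 on the opposite strand, and 29.6% of the 50-base words of its main isoform occur in Ttc14.

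Radial spoke genes included the 2 with the highest TPM of the 66, Rsph1 and Rsph3a, and did not move one way. Among the 7, 2 were lower, 2 higher, and the median was 0.04. The background of all genes with at least 20 CPM was 40.2% lower and 19.6% higher. Rsph1, a spoke-head protein and the most abundant of all 66 genes, had 2097 and 2117 TPM in WT and 1723 and 1667 TPM in KK. It fell from 1432 ± 12.7 to 1152 ± 31.1 CPM (SD, n = 2), a log2 fold change of -0.31 ± 0.03 (edgeR adjusted p = 2.1e-08). The median of genes in its length class, below 1000 bases, was 0.04, and with the length trend removed the log2 fold change of Rsph1 was -0.40. The spoke-head gene Rsph9, at 206 and 194 TPM in WT and 247 and 225 TPM in KK, went up by 0.24 ± 0.05 (edgeR adjusted p = 2.3e-04), or 0.12 with the length trend removed (adjusted p = 0.0344). Rsph6a, the spoke-head paralogue of Rsph4a that is prominent in testis, went from 293 and 302 TPM to 264 and 270 TPM (-0.16 ± 0.04), a call lost with scaling by library size alone (edgeR adjusted p = 0.105). Rsph4a itself had 5.0 to 16.0 counts per library. Thus 2 spoke-head genes were lower and 1 was higher, each without overlap between the genotypes.

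The spoke-base paralogues Rsph3a and Rsph3b share 83% and 84.7% of their 50-base words with other genes, mostly with each other, so the split of reads between them is uncertain. Rsph3a was at 1757 and 1641 TPM in WT and 1641 and 1596 TPM in KK, while in counts its estimate was 0.03 ± 0.03. Its TPM rests largely on short isoforms that are not annotated as protein coding. Rsph3a-206 (688 bases) was given 732 to 770 TPM, and Rsph3a-207 (353 bases) was given 397 to 546 TPM on 266 to 353 counts. The protein-coding Rsph3a-201 was at 426 to 455 TPM. Rsph3b was at 583 TPM in both WT libraries and 583 and 603 TPM in KK. Neither passed; both were called higher with scaling by library size alone, and Rsph3a was called lower with the length trend removed (-0.09, edgeR adjusted p = 0.0325). Rsph10b, which shares 11.2% of its words with other genes, was at 36 and 39.1 TPM in WT and 39 and 39.7 TPM in KK (0.18 ± 0.08, edgeR adjusted p = 0.0605). Rsph14 passed narrowly as higher (0.29 ± 0.12, edgeR adjusted p = 0.0451), at 18.4 and 20.5 TPM in WT and 23.6 and 20.2 TPM in KK. Its TPM overlapped, and the call was lost in 10 of 15 alternatives, including without KK replicate 1 (0.16, adjusted p = 0.414). Its isoform Rsph14-207 (1190 bases) had 0 counts in both WT libraries and 30 and 159 counts in KK. The similarly long Rsph14-201 (1179 bases) had 188 and 179 counts in WT and 248 and 66 in KK. The high count of the former and the low count of the latter are thus from the same library, KK replicate 2.

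The central apparatus genes went both ways. Spag6, an armadillo-repeat protein of the central pair, had 40.5 and 40 TPM in WT and 70.1 and 71 TPM in KK. The libraries of each genotype lay close together and far from the other genotype, and Spag6 rose 1.76-fold, by 0.81 ± 0.07 on the log2 scale (edgeR adjusted p = 1.4e-10). Both main isoforms rose in step: Spag6-201 had 656 and 667 counts in WT and 1253 and 1212 in KK, and its share of Spag6 transcripts stayed between 52.8% and 55.3%. Its better expressed paralogue Spag6l, which is not among the 66, stood at 773 ± 11.6 CPM in WT and 751 ± 14.6 CPM in KK (edgeR adjusted p = 0.357). Only 0.747% of the 50-base words of Spag6 occur in Spag6l, and 7.93% occur in the opposite-strand gene Gm20539. The very large Spag17 fell from 83.9 and 86 TPM to 70 and 72.5 TPM (-0.23 ± 0.04), a call lost with the length trend removed (edgeR adjusted p = 0.0978). Spag16, another central apparatus protein, was at 196 and 192 TPM in WT and 188 and 189 TPM in KK and did not pass (-0.07 ± 0.04).

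The 31 CFAP genes split almost evenly, with 12 lower and 9 higher (38.7% and 29%) and a median log2 fold change of -0.06. Of all genes with at least 20 CPM, 40.2% were lower and 19.6% higher, so the share of lower CFAP genes was near that background. The same shares are the background for the smaller CFAP groups that follow. They were grouped by known position in the axoneme after their values had been seen. Of the 8 central apparatus genes, 5 were lower and 1 was higher. Cfap46, of a projection of the central pair, fell most of all CFAP genes, from 49.4 and 57 TPM to 36.1 and 33.1 TPM (-0.52 ± 0.04, edgeR adjusted p = 4.2e-11). Cfap65, whose loss is known to give malformed sperm flagella, fell from 119 and 117 TPM to 89.6 and 94.9 TPM (-0.36 ± 0.04, edgeR adjusted p = 3.7e-09). In both genes all KK libraries were below all WT libraries, and both kept the call in all 15 alternatives, with Cfap65 at -0.22 once the length trend was removed. Cfap74, Cfap69 and Cfap70 were lower, with log2 fold changes of -0.21, -0.16 and -0.09. For Cfap69 the TPM overlapped between genotypes (251 and 237 against 278 and 186), and the Cfap70 call was lost in 10 of 15 alternatives. Cfap221, of the same projection as Cfap46, was higher, with 16.6 and 19.2 TPM in WT and 23.2 and 24.3 TPM in KK (0.28 ± 0.09, edgeR adjusted p = 0.00957). Its call was lost without WT replicate 1 (0.18, adjusted p = 0.182) and without KK replicate 1 (0.24, adjusted p = 0.053). Cfap54 and Cfap99 did not pass.

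Among 7 CFAP genes that tether dyneins or dock spokes, 2 were lower and 3 higher. Cfap43 and Cfap44 encode partners in the tether of the double-headed inner arm, and both were lower, by log2 fold changes of -0.25 ± 0.04 and -0.20 ± 0.05. Cfap43 was at -0.16 with the length trend removed. Cfap44 went from 34.6 and 36.3 TPM to 27.6 and 29.3 TPM, and lost its call with the length trend removed (edgeR adjusted p = 0.184). Cfap100, a regulator of inner arm dynein, rose from 5.66 and 7.34 TPM to 12.9 and 10.1 TPM, by 0.81 ± 0.14 on the log2 scale (edgeR adjusted p = 3.8e-05). The KK libraries both lay above the WT libraries, but the estimate ranged from 0.60 to 1.04 as single libraries were left out. Its binding partner in cilia, Cfap73, had 2.53 to 3.51 TPM in all libraries and no detectable difference at that depth (exact 95% interval of the scaled count ratio 0.589 to 1.34). Cfap206, which helps to dock a spoke and was the fourth most abundant of the 66, was at 749 and 717 TPM in WT and 796 and 819 TPM in KK. That is a log2 fold change of 0.12 ± 0.03 (edgeR adjusted p = 0.00725), no longer called without WT replicate 2 (0.09, adjusted p = 0.104). Cfap61, of a spoke-associated complex, was called higher at 0.17 ± 0.06 but overlapped in TPM, and without KK replicate 2 it was 0.06 (adjusted p = 0.529). Cfap57 was not called (-0.06 ± 0.04); the share of its isoform Cfap57-202 was 14.9% and 22.4% in WT and 30.7% in each KK library.

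Of 7 CFAP genes for microtubule inner proteins, 2 were lower and 2 higher. Cfap77 had the largest rise of the 66 genes, 0.86 ± 0.19 on the log2 scale (edgeR adjusted p = 5.7e-04), at a low level of 4.15 and 4.05 TPM in WT and 6.3 and 8.41 TPM in KK. It rests on 132 counts in WT and 254 in KK, a scaled ratio of 1.82 with an exact 95% interval of 1.47 to 2.26 for counting error. Cfap126, also called Flattop, was at a higher level and rose from 201 and 197 TPM to 257 and 266 TPM (0.33 ± 0.05, edgeR adjusted p = 1.1e-06). With the length trend removed its log2 fold change was 0.20. Cfap52 fell from 144 and 147 TPM to 121 and 123 TPM (-0.28 ± 0.04). Cfap20 was called lower at -0.11 ± 0.04, which 7 of 15 alternatives did not call. Cfap45, Cfap53 and Cfap161 did not pass.

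The other 7 CFAP genes have a less settled place in the axoneme. Cfap97d1, needed for the sperm axoneme, was the shortest transcript of the list and rose from 51.4 and 58.2 TPM to 104 and 83.4 TPM (0.65 ± 0.10, edgeR adjusted p = 5.5e-06). Its paralogue Cfap97 went the other way, from 269 and 272 TPM to 227 and 228 TPM (-0.25 ± 0.03, or -0.16 with the length trend removed), and neither overlapped between genotypes. Cfap157 rose from 39.6 and 38.6 TPM to 56.6 and 60.4 TPM, by 0.59 ± 0.07 (edgeR adjusted p = 1.2e-07). Cfap58, whose loss is known to disturb the sperm flagellum, was at 30.9 and 35.1 TPM in WT and 39.9 and 37.9 TPM in KK. It rose by 0.36 ± 0.06 in counts (edgeR adjusted p = 7.9e-06) but was not called on TPM (limma adjusted p = 0.114). Cfap36, the sixth most abundant of the 66, went from 588 and 594 TPM to 546 and 554 TPM (-0.12 ± 0.03, edgeR adjusted p = 0.00596), a call lost with scaling by library size alone (adjusted p = 0.439). Cfap97d2 and Cfap299 did not pass.

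Genes outside the list that build or regulate the same structures were counted for comparison, from lists of known components. The 7 axonemal lists together held 107 tested genes, of which 43 were lower and 29 higher (40.2% and 27.1%), with a median of -0.04. Over all genes with at least 20 CPM, 40.2% were lower and 19.6% higher. Over all genes tested the shares were 21.7% and 22.0%. Further assembly factors were lower in 9 of 15 cases and higher in 3, with a median of -0.13; Pih1d3 fell most (31 to 19.2 CPM, -0.69 ± 0.10) and Ccdc103 rose most (0.30 ± 0.09). Outer arm docking genes were lower in 3 of 6 and higher in 1, from Efcab1 (-0.55 ± 0.22) to Ccdc63, a docking gene of sperm, at 52.7 CPM in WT and 89.4 CPM in KK (0.76 ± 0.06). The nexin-dynein regulatory complex, which links neighbouring doublets, had 3 of 9 genes lower and 2 higher, from Tcte1 (-0.35 ± 0.04) to Iqca (0.89 ± 0.16). Other spoke and central apparatus genes had 8 of 21 lower and 5 higher, between Lrguk (-0.44 ± 0.06) and Ak8 (0.27 ± 0.04). Intraflagellar transport genes, which carry cargo along the growing axoneme, were lower in 15 of 31 and higher in 4, with Ift80 falling most (221 to 148 CPM, -0.58 ± 0.04) and Wdr34 rising most (0.32 ± 0.04).

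Tektins and other microtubule inner proteins outside the list had 0 of 13 genes lower and 9 higher (69.2%), with a median of 0.21. Of all genes with at least 20 CPM, 40.2% were lower and 19.6% higher. The counts of this list were the same with the length trend removed. The largest rise was in Efhc2 (7.84 to 15.5 CPM, 0.98 ± 0.13, edgeR adjusted p = 3.1e-07). Tekt2 rose from 178 to 254 CPM (0.51 ± 0.04) and Tekt4 from 205 to 302 CPM (0.56 ± 0.04). Among the 12 tested regulators of ciliary genes, 5 were lower and 5 higher. Mybl1, the meiotic activator, fell from 118 to 75.5 CPM (-0.64 ± 0.05, edgeR adjusted p = 5.7e-11), and Rfx2 fell from 611 to 535 CPM (-0.19 ± 0.04, edgeR adjusted p = 1.3e-04). Of the other RFX genes tested in that list, Rfx4 also fell (-0.22 ± 0.05, edgeR adjusted p = 7.5e-04), while Rfx1 (0.45 ± 0.08, adjusted p = 2.1e-05) and Rfx3 (0.33 ± 0.10, adjusted p = 0.0108) rose. E2f5 rose most, from 6.38 to 18.6 CPM (1.55 ± 0.13), and Foxj1, which drives motile cilia genes in epithelia, rose from 31.7 to 47.4 CPM (0.58 ± 0.09). The RFX genes, Foxj1, Tekt2 and Tekt4 were named after their values were seen.

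**Figure D5:**
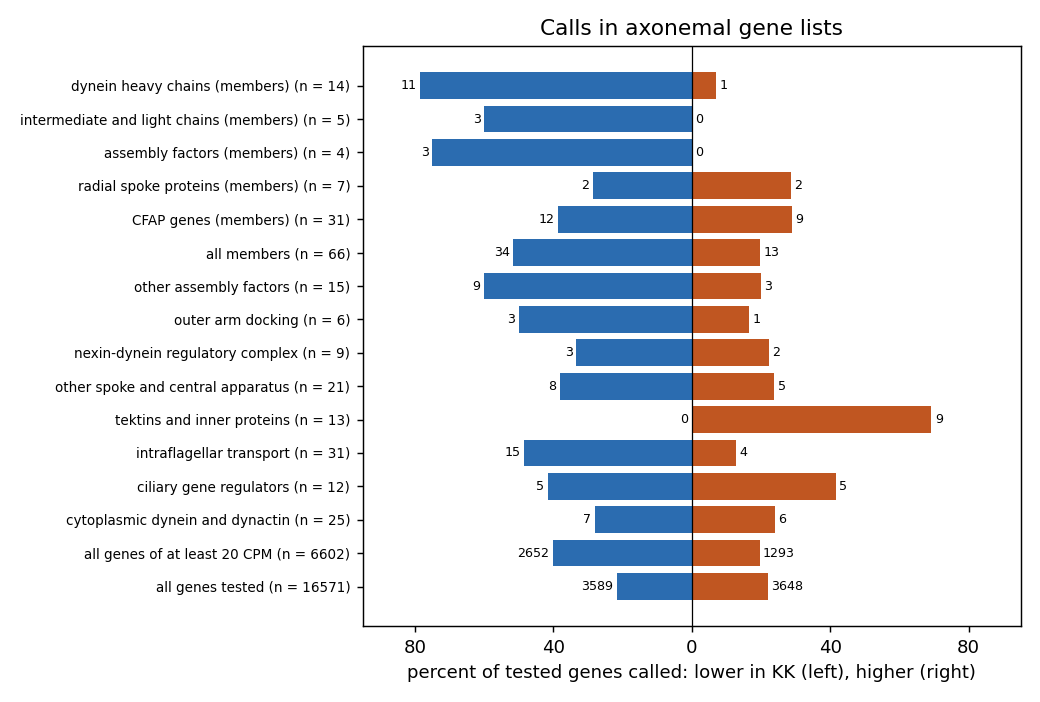
Percent of tested genes called lower in KK (left, blue) or higher in KK (right, orange) by edgeR at an adjusted p under 0.05, for lists of axonemal genes and for all genes; numbers at the bars are gene counts. Dynein heavy chains are lower in 11 of 14 cases, tektins and inner proteins are higher in 9 of 13, and the bars at the bottom give the background.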

How the data were processed

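Per the file headers, each gene has an expected count, a TPM value, a length and an effective length, and each isoform its percent of the gene's transcripts. The expected counts deposited by the authors are estimates and need not be whole. The authors' deposited TPM values are relative to effective length and scaled to the same total in each library. The isoform percent values were used as the authors deposited them. Effective lengths, also deposited by the authors, differ between libraries with the isoform mix. Bowtie, mm10 and GRCm38 are named in the submitters' processing notes. The sources used here do not name a quantifier or an annotation release. Per the labels' protocols, the library kit was one that leaves strand unmarked.

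Symbols came from GENCODE M21, in which 55104 of 55364 gene identifiers were found. Counts were rounded and tested with edgeR 4.0.16 in R 4.3.3 (TMM factors, filterByExpr, quasi-likelihood fit on genotype, Benjamini-Hochberg adjustment over all 16571 genes, threshold 0.05). The standard error was taken as the size of the log2 fold change over the root of its F statistic, and CPM was computed with TMM factors. Alternatives were RLE factors, library size alone, DESeq2 1.42.0, limma 3.58.1 on log2(TPM + 1) and log2(TPM + 0.1), other filters, a replicate block, offsets for a length trend and for effective length, and each library left out. The code was tested on simulated data. Promoter windows came from RefSeq on GRCm38.p6. Words of 50 bases were compared across GENCODE M21 transcripts.

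The genes, lists and rules were chosen with earlier results of these data known. The rule for named genes took the 6 most abundant, up to 10 falls and 10 rises past the threshold without overlap in CPM and with at least 1 CPM, every heavy chain and radial spoke gene, the genes named singly in the definition, and the largest fall and rise of each other list. Remaining genes and isoforms were named after their values were seen, to account for the whole list.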

Additional observations from a re-analysis of the deposited data

How the results depend on the processing

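Of the 47 axonemal genes with a call, 24 kept direction and call in all 15 alternatives, 23 lost the call in at least 1 and 3 changed sign in at least 1; of the 19 without a call, 12 were called in at least 1. Tests of log2(TPM + 1) called fewer: 20 lower and 8 higher axonemal genes, 5 lower heavy chains, 22 lower and 19 higher other axonemal genes, and 1551 lower and 2275 higher of all genes. With log2(TPM + 0.1) there were 20 lower axonemal genes, 5 lower heavy chains, 23 lower and 19 higher other axonemal genes, and 1549 and 2209 of all genes. Library size alone gave 22 higher axonemal genes and 25 lower other axonemal genes. DESeq2 called 2405 of all genes higher, and the effective length offset called 2283 lower and 2379 higher. Dnah9 made the higher heavy chains 2 with library size alone, the 1 CPM filter, both length offsets and the length trend with the replicate block. The replicate block itself gave 33 lower and 13 higher axonemal genes and, with the length trend, 29 and 13. Same-numbered libraries had a correlation of deviations of -0.101 over 14502 genes; pairing WT replicate 1 with KK replicate 2, added after seeing the data, gave 34 lower and 14 higher, with 2 higher heavy chains. Without single libraries the axonemal genes numbered 30 to 34 lower and 10 to 13 higher. Sign changes with the length trend, alone and with the replicate block, were Dnah6 (0.01 in each), Dnah7c (0.05 in each), Dnah5 (0.08 and 0.09), Cfap54 (0.08 in each), Cfap57 (0.03), Cfap97d2 (0.06), Cfap161 (-0.00), Cfap299 (-0.01), Dnal4 (-0.05), Rsph3a (-0.09 and -0.08) and Rsph3b (-0.00). On either TPM scale Dnal1 turned to 0.11, Dnaic1 to -0.01 and Rsph3a to -0.07, and with the effective length offset to 0.10, -0.02 and -0.09. With library size alone Cfap298 turned to 0.04, Cfap54 to 0.02, Cfap57 to 0.03, Cfap97d2 to 0.08, Cfap99 to 0.02 and Spag16 to 0.01; with the 1 CPM filter Cfap97d2 turned to 0.01. With single libraries left out, sign changes were Cfap161 (-0.01 to 0.12), Cfap298 (-0.12 to 0.01), Cfap73 (-0.39 to 0.09), Cfap97d2 (-0.13 to 0.09), Cfap99 (-0.18 to 0.03), Dnah5 (-0.28 to 0.03), Dnaic1 (-0.01 to 0.08) and Dnal4 (-0.06 to 0.08). The cause of these changes was not tested. Genes near 1 CPM or below, such as Dnah5, Dnah9, Cfap73 and Cfap97d2, are limited by depth.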

Other observations

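Cytoplasmic dynein 1 and its activator dynactin, which carry cargo inside the cell and share no heavy chain with the axoneme, were counted for comparison. Of 25 tested genes 7 were lower in KK and 6 higher (28% and 24%), and the median of the log2 fold changes was -0.00. Over all genes with at least 20 CPM, 40.2% were lower and 19.6% higher. The heavy chain Dync1h1, which like the axonemal heavy chains has a very long transcript, fell from 824 to 633 CPM (-0.38 ± 0.04, edgeR adjusted p = 2.2e-09). The light intermediate chain Dync1li2 fell from 225 to 161 CPM (-0.48 ± 0.04, edgeR adjusted p = 1.6e-10). The light chain genes Dynll1 (254 to 299 CPM, 0.23 ± 0.04) and Dynll2 (39.6 to 57.5 CPM, 0.54 ± 0.08) rose. Dync1i1 (-0.52 ± 0.20) and Dynlt3 (1.23 ± 0.29), each under 6 CPM, were the largest fall and rise. The other genes of this paragraph were named after their values were seen.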
